A study of Mus musculus with 10 samples.

Results

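The genes described here are 10 genes of the neuronal cytoskeleton, Stmn2, Stmn3, Tubb3, Map2, Mapt, Dcx, Gap43, Crmp1, Dpysl3 and Ina. They were selected by symbol from the 24391 genes of the count files, and all 10 were found in each file and passed the filter on low counts that left 12835 genes. Expression was measured by RNA-seq in 5 mouse small cell lung cancer (SCLC) lines, G4314, G9351, G9488, G9529 and G9577, each grown on doxycycline and after 4 days without it, with 1 library for each line and condition. All lines carry the same alleles by label, an altered Rb and p53 background with TRE-MYCN, a transgene under a tetracycline-responsive promoter, and LSL-RTTA, the doxycycline-dependent activator behind a lox-stop-lox cassette. Doxycycline therefore keeps MYCN on, and both groups otherwise share genotype. The driver of the recombinase and the species of the transgene are not given in the sources used here. Each line is a culture derived from a tumour, no culture without the transgene received doxycycline, and nothing says that a culture was repeated. The main fit compares each line with itself. Its p-values set the change between on and off against its variation over these 5 lines, with variance estimates moderated over all genes.

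Total counts ran from 9586465 to 11960074 per library. Mycn, the check of the labels, stood between 496 and 977 CPM (counts scaled to a library of equal size with TMM factors) on doxycycline and between 27.6 and 189 CPM off it, without overlap. SCLC is a neuroendocrine tumour type, and 13 neuroendocrine markers summed to between 3729 and 8466 CPM in the 8 libraries of G4314, G9351, G9488 and G9529, with 0 of 13 at zero counts; these are called the 4 neuroendocrine lines here. G9577 went against that label: the same markers summed to 224 CPM on doxycycline and 190.2 CPM off it, led by Uchl1 (118 CPM) and Ncam1 (99.8 CPM) on doxycycline and by Ncam1 (125 CPM) and Uchl1 (17.3 CPM) off it, with each of the other 11 at 11.8 CPM or less. The 15 mesenchymal markers summed to 2955 and 18518 CPM in G9577 against 2.57 to 27.4 CPM in the other 8 libraries, led in G9577 by Fn1. The 9 markers of mature neurons summed to 8.29 and 15.9 CPM in G9577 and to between 265 and 947 CPM elsewhere, led in each library by Snap25, also one of the neuroendocrine markers, or Camk2a. Of the other 7, Syn1 (59.9 to 171 CPM), Gad1 (4.09 to 187 CPM) and Rbfox3 (1.57 to 29.2 CPM) were present in the 4 neuroendocrine lines, and the vesicular transporters Slc17a6, Slc17a7 and Slc32a1 and the enzyme Gad2 were at 2.67 CPM or less in each library. Epithelial markers (8 genes) summed to between 1715 and 3580 CPM in the 4 neuroendocrine lines and to 11.8 and 41.3 CPM in G9577, endothelial markers (6 genes) to at most 11.1 CPM against 35.7 and 133 CPM in G9577, and immune markers (8 genes) to at most 5.99 CPM against 3.82 and 60.9 CPM. Schwann cell and glial markers (8 genes) summed to between 315 and 451 CPM in the 4 neuroendocrine lines, led by Mbp, and to 137 and 309 CPM in G9577, led by Pmp22, with Sox10 and Gfap below 1 CPM in each library. Results are therefore given with and without G9577. In bulk RNA, fewer cells of a type and less RNA per cell cannot be told apart.

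Neurons extend axons and dendrites on microtubules built from tubulin dimers, stabilised by microtubule-associated proteins such as those of Map2, Mapt (tau) and Dcx (doublecortin) and destabilised by stathmins such as those of Stmn2 and Stmn3. Collapsin response mediator proteins, encoded by Crmp1 and Dpysl3, bind tubulin and relay guidance signals to the growth cone, where Gap43 acts at the membrane. Neuroendocrine tumour cells, SCLC among them, express many such neuronal genes, and Tubb3 (class III beta-tubulin) and Ina (the neurofilament protein alpha-internexin) are used as neuronal markers.

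Promoter windows in the RefSeq table (build GRCm38.p6) were matched for 6 of the 10 genes: Map2, Stmn3, Crmp1, Tubb3, Ina and Dcx, with 8 windows in all since Crmp1 and Dcx have more than 1 start. Each window runs from 250 bases before to 50 bases after the start, and E-boxes were searched in it on both strands: CACGTG, the canonical site of MYC and MAX dimers, and CAGCTG and CAGATG, forms bound by neural basic helix-loop-helix factors. CACGTG was in 0 of the 8 windows, against 7.15% of all 32851 windows. CAGCTG was in the window of 1 of the 6 genes, Ina, starting 135 bases before the start (16.3% of all windows hold it), and CAGATG in that of 1, Stmn3, starting 75 bases before the start (17.2% of all windows). A match is a run of letters and not a measured site, and these data hold no measure of binding. The 250 upstream bases are shown for Map2, which fell with MYCN on, for Ina, which stood higher with MYCN on in all 5 lines, and for Stmn3, whose level hardly differed in 4 of the 5 lines, with the E-box in capitals.
Map2 (GRCm38.p6, chr1:66175079-66175328, plus strand): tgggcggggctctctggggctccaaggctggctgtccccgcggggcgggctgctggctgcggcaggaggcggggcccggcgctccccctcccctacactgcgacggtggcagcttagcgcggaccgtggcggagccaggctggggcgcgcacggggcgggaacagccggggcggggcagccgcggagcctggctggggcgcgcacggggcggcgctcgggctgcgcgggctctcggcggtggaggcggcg
Ina (GRCm38.p6, chr19:47014431-47014680, plus strand): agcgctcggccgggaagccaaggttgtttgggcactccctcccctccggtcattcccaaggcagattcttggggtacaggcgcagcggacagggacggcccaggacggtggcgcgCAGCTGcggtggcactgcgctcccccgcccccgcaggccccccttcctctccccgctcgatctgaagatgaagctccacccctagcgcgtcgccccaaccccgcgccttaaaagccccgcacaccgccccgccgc
Stmn3 (GRCm38.p6, chr2:181314501-181314750, minus strand): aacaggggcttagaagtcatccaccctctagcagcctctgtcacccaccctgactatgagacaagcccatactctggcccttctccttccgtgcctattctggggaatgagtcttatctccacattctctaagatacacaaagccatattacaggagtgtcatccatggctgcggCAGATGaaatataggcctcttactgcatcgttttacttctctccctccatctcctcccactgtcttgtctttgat
The upstream stretch of Map2 has a GC content of 81.2% and that of Ina 70.8%, against 48.8% for Stmn3 and a median of 52.4% over all windows.

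With MYCN on, 2 of the 10 genes were lower at an adjusted p below 0.05, Stmn2 and Map2, and 0 were higher. Over all 12835 genes tested, 15.6% were lower and 15.3% higher by the same rule (31.0% in either direction), so the share of these genes that changed was not above that of all genes. Markers of neuroendocrine cells moved in the same direction as Stmn2 and Map2: 9 of 13 were called lower and 0 higher, with summed levels of 3729 to 4599 CPM on and 6120 to 8466 CPM off in the 4 neuroendocrine lines. Of the 5 mature neuron markers tested 4 were lower, among them Snap25, which is in both lists. The fifth, Rbfox3, was higher with MYCN on in 5 of 5 lines without passing (log2 change 0.91, adjusted p = 0.0865). In G9577 Rbfox3 stood at 0.0932 CPM on and 0 off. The part of these markers in the changes of Stmn2 and Map2 was not tested. At an unadjusted p below 0.05, 4 were lower (Stmn2, Map2, Mapt and Dpysl3; 24.0% of all genes) and 1 was higher (Ina; 21.2% of all genes). DESeq2 called those 4 as lower, against 23.4% of all genes, and Ina as higher, against 17.8%. Limma-voom called 3 as lower (18.5% of all genes) and 0 as higher (16.3%). The median log2 change was -0.34 over the 10 genes and -0.08 over all genes tested. For 4 genes, Stmn2, Stmn3, Map2 and Gap43, the level was lower with MYCN on in all 5 lines (23.2% of all genes). For Gap43 the fifth line, G9577, has 2 counts in each library and its sign comes from scaling alone. The log2 change of Stmn3 in G9488 was -0.003, from 190 counts on and 181 off, so its sign comes from scaling too. In G9577 Stmn3 had 2 counts on and 11 off, and Stmn2 had 0 on and 2 off. For 1 gene, Ina, the level was higher in all 5 lines (20.9%). For 0 of the 10 did all 5 on libraries lie below, or all 5 above, the off libraries (2.88% and 6.35% of all genes), because the lines differed more from each other than the conditions did.

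**Figure D1:**
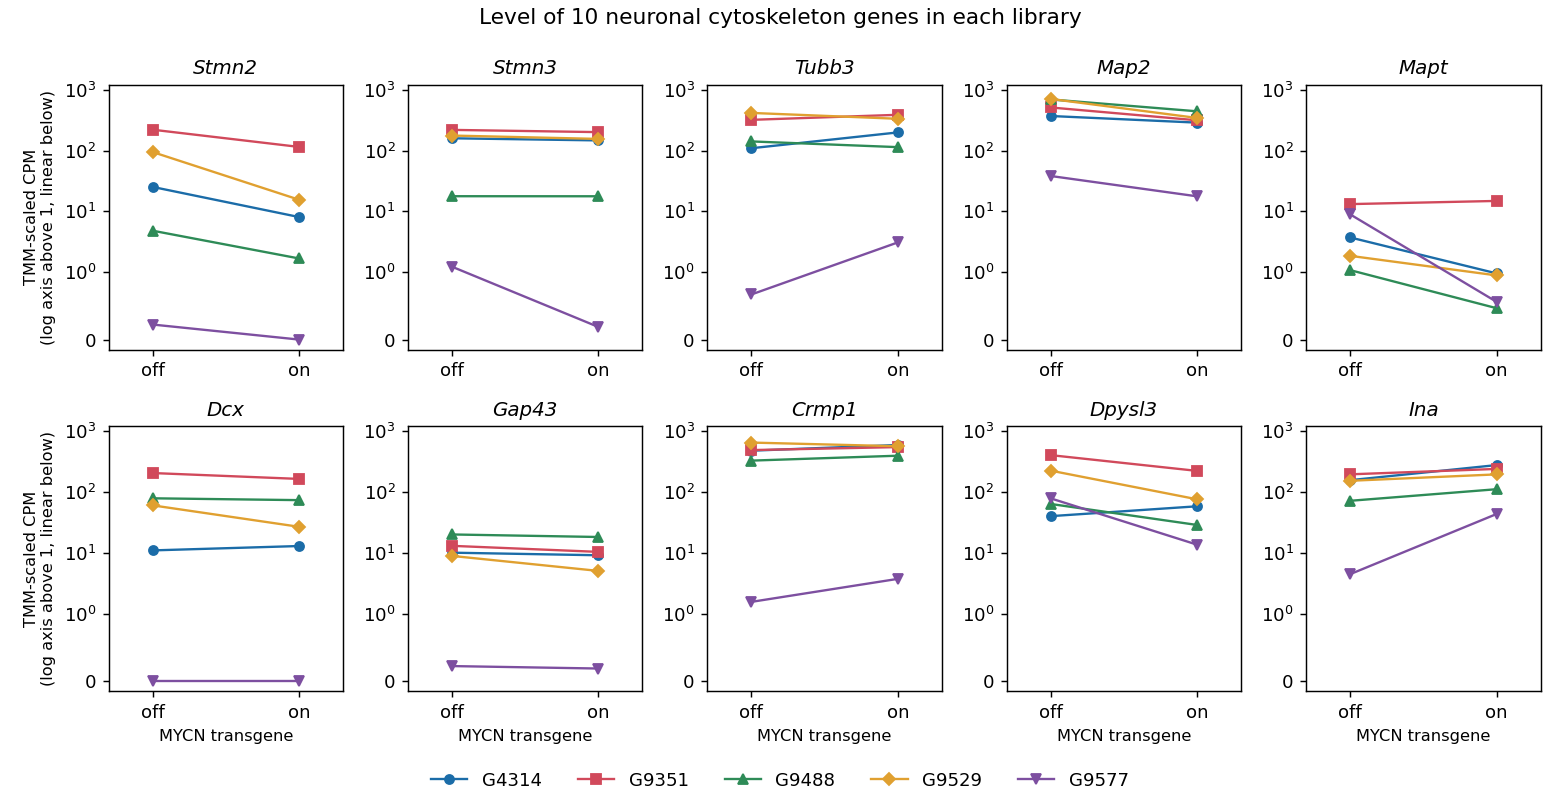
Level of each of the 10 genes as TMM-scaled CPM (vertical axis, logarithmic above 1 and linear below) with MYCN off and on (horizontal axis). Each colour and symbol is 1 line and each segment joins its 2 libraries; G9577 lies lowest for Stmn2, Stmn3, Tubb3, Map2, Dcx, Gap43, Crmp1 and Ina, while for Mapt and Dpysl3 its off library lies among the other lines.

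Stmn2 (mm9 chromosome 3, 8509527 to 8561604, plus strand), which encodes the growth cone stathmin SCG10, a protein that promotes microtubule turnover and axon growth, had the largest fall of the 10 genes. With MYCN off it stood at 220.1 CPM in G9351, 94.4 in G9529, 25.2 in G4314, 4.79 in G9488 and 0.223 in G9577. With MYCN on it stood at 115 CPM in G9351, 15.5 in G9529, 8.04 in G4314, 1.67 in G9488 and 0 in G9577. The order of the lines was the same in both conditions, and the groups overlapped. Over the 8 libraries of the 4 lines with the gene, on and off together, the level spanned 132-fold. The mean was 27.95 ± 48.8 CPM on and 68.9 ± 92.5 CPM off (SD, n = 5 lines), and the fitted log2 change was -1.71 (SE 0.30, adjusted p = 0.00829), or 3.27-fold lower. Within lines the log2 change ran from -0.94 in G9351 to -2.59 in G9529. That of G9577, -1.11, rests on 2 counts against 0. Without G9577 the fitted change was -1.67 (adjusted p = 0.00489). Without another line it stayed a call, with adjusted p between 0.0221 and 0.0354 and log2 changes from -1.42 without G9529 to -2.03 without G9351.

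Stmn3 (chromosome 2, 181041164 to 181049205, minus strand), the related neuronal stathmin SCLIP, did not pass. It stood at 201, 155, 147 and 17.7 CPM with MYCN on in G9351, G9529, G4314 and G9488, and at 218.5, 176, 159 and 17.7 CPM with MYCN off in the same order. In G9577 it had 2 counts on and 11 off. The fitted log2 change was -0.25 (SE 0.23, 95% interval -0.79 to 0.30, adjusted p = 0.434), and -0.10 without G9577 (adjusted p = 0.439). The change of Stmn2 minus that of Stmn3 was negative in 4 of 5 lines, between -0.82 in G9351 and -2.41 in G9529, and 0.79 in G9577, where both have few counts. Its mean of -1.07 ± 1.19 (SD, n = 5) had p = 0.125 in an exact two-sided sign-flip permutation test over lines, which cannot go below 0.0625 (adjusted p = 0.188 over 3 such pairs, which were chosen after their values were seen). With a prior count of 0.5 instead of 2 in the log2 values the mean was -1.26 and the exact permutation p 0.0625. Stmn1, the widely expressed stathmin, was higher with MYCN on in 5 of 5 lines without passing (log2 change 0.64, SE 0.22, adjusted p = 0.0601), and Stmn4 did not pass the count filter.

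Tubb3 (chromosome 8, 125935464 to 125945910, plus strand) was abundant in the 4 neuroendocrine lines and moved in different directions among them. It stood at 387, 333, 198 and 114 CPM with MYCN on in G9351, G9529, G4314 and G9488, and at 319.6, 416, 109 and 141 CPM with MYCN off. It was higher with MYCN on in G4314 (log2 change 0.86), G9351 (0.28) and G9577 (1.93, from 6 to 33 counts) and lower in G9488 (-0.31) and G9529 (-0.32). Over 5 lines the fitted change was 0.32 (SE 0.29, 95% interval -0.37 to 1.01, adjusted p = 0.426), and 0.13 without G9577. Tubulin genes are near-identical in part, and reads that fit several genes were not counted, so levels of single tubulins are uncertain.

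Map2 (chromosome 1, 66221903 to 66489157, plus strand), the dendritic microtubule-associated protein, fell by a smaller factor than Stmn2, and was lower in all 5 lines. With MYCN off it stood at 705 CPM in G9529, 692 in G9488, 511 in G9351, 369.8 in G4314 and 38.1 in G9577. With MYCN on it stood at 343 CPM in G9529, 442 in G9488, 314 in G9351, 288 in G4314 and 17.6 in G9577. Its 5 log2 changes lay between -0.36 in G4314 and -1.10 in G9577. The mean was 281 ± 158 CPM on and 463 ± 275 CPM off (SD, n = 5 lines), with a fitted log2 change of -0.77 (SE 0.14, adjusted p = 0.00945), or 1.70-fold lower. Without G9577 the change was -0.68 (adjusted p = 0.0101), and with another line left out it was between -0.72 and -0.89 (adjusted p between 0.0237 and 0.0361). Neither Map2 nor Stmn2 was called in the fit without the line as a block, where the adjusted p was 0.651 and 0.702 and 0 members were called in either direction. That fit, in which the spread between lines enters the error, called 0.460% of all genes as lower and 1.68% as higher.

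Mapt (chromosome 11, 104092750 to 104193403, plus strand), which encodes tau, the axonal counterpart of the Map2 protein, had the lowest mean per kilobase of the 10 genes, though not the lowest level in each library. With MYCN off it stood at 13.1 CPM in G9351, 8.91 in G9577, 3.71 in G4314, 1.85 in G9529 and 1.08 in G9488. With MYCN on it stood at 14.8 CPM in G9351, 0.559 in G9577, 0.980 in G4314, 0.950 in G9529 and 0.465 in G9488. G9351 thus kept its level while the other 4 lines were lower, G9577 from 80 counts to 6. Over 5 lines the fitted log2 change was -1.46 (SE 0.59, 95% interval -2.84 to -0.07), which did not pass (adjusted p = 0.0972), though DESeq2 called it (adjusted p = 0.0211). Without G9577 it was -0.82 (adjusted p = 0.150), and without G9351 -2.05 (adjusted p = 0.0630). The change of Map2 minus that of Mapt had a mean of 0.62 ± 1.33 (SD, n = 5 lines) and an exact permutation p of 0.375.

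Dcx (chromosome X, 140290385 to 140367762, minus strand), the marker of migrating immature neurons, differed more between the lines than between the conditions. It stood at 165, 73.6, 26.8 and 12.9 CPM with MYCN on in G9351, G9488, G9529 and G4314, and at 206, 78.9, 60.4 and 10.96 CPM with MYCN off. G9577 had 0 counts in both libraries, which allows up to 0.280 CPM on and 0.334 CPM off (3 counts, counting error only), so the lowest of the other 8 libraries was at least 32.8-fold higher. For all lines together the log2 change was -0.34 (SE 0.25, 95% interval -0.94 to 0.25, adjusted p = 0.315). The largest change was that of G9529 (-1.17), and without that line the fitted value was -0.10. Without G9577 the fitted value was -0.34 (adjusted p = 0.259).

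Gap43 (chromosome 16, 42248674 to 42340764, minus strand), the growth cone phosphoprotein, was low throughout, between 5.04 and 20.05 CPM in the 4 neuroendocrine lines and at 2 counts in each library of G9577. Its level was lower with MYCN on in each of the 4 neuroendocrine lines, from -0.14 in G9488 and G4314 to -0.80 in G9529, and the -0.13 of G9577 reflects scaling alone. The fitted log2 change was -0.34 (SE 0.22, 95% interval -0.86 to 0.17, adjusted p = 0.256), and -0.34 without G9577 (adjusted p = 0.228).

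Crmp1 (chromosome 5, 37633297 to 37683402, plus strand) and Dpysl3 (chromosome 18, 43480633 to 43597940, minus strand) belong to the same family. Crmp1 stood at 595, 549, 567 and 396 CPM with MYCN on in G4314, G9351, G9529 and G9488, and at 479, 491, 652 and 329 CPM with MYCN off, the narrowest range of the 10 genes over these 8 libraries (1.98-fold). In G9577 it had 40 counts on and 14 off, and the lowest of the other 8 libraries was 88.3-fold above the higher of these. Its fitted log2 change was 0.27 (SE 0.18, 95% interval -0.16 to 0.69, adjusted p = 0.281), and 0.15 without G9577 (adjusted p = 0.389).

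Dpysl3 was lower with MYCN on in 4 of 5 lines. With MYCN off it stood at 405 CPM in G9351, 225 in G9529, 78.7 in G9577, 63.7 in G9488 and 40.1 in G4314. With MYCN on it stood at 223 CPM in G9351, 75.9 in G9529, 13.6 in G9577, 28.7 in G9488 and 58.3 in G4314. G4314 alone was higher with MYCN on (log2 change 0.54), and the others ran from -0.86 in G9351 to -2.52 in G9577. The fitted log2 change of -1.12 (SE 0.39, 95% interval -2.04 to -0.20) missed the threshold (adjusted p = 0.0665). It passed in DESeq2 (adjusted p = 0.00714), in limma-voom (0.0455) and without G4314 (log2 change -1.53, adjusted p = 0.0271; 3 members and 7.14% of all genes were called lower and 0 members and 6.64% higher without that line), and was -0.77 without G9577 (adjusted p = 0.100). In G9577 the summed level of 15 mesenchymal markers moved with Dpysl3 and Mapt, from 18518 CPM off to 2955 CPM on; its part in these changes was not tested. The change of Crmp1 minus that of Dpysl3 was positive in 4 of 5 lines, with a mean of 1.45 ± 1.41 (SD, n = 5) and an exact permutation p of 0.125 (adjusted p = 0.188), and 0.89 without G9577.

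Ina (chromosome 19, 47089188 to 47098836, plus strand) was the only one of the 10 that was higher with MYCN on in all 5 lines. With MYCN on it stood at 278 CPM in G4314, 240.2 in G9351, 195 in G9529, 111 in G9488 and 43.5 in G9577. With MYCN off it stood at 157 CPM in G4314, 196 in G9351, 153 in G9529, 71.8 in G9488 and 4.45 in G9577. The change in the 4 neuroendocrine lines lay between 0.30 in G9351 and 0.82 in G4314, and that of G9577, from 40 to 467 counts, was 3.23. The fitted log2 change over 5 lines was 0.96 (SE 0.41, 95% interval 0.01 to 1.91) and did not pass (adjusted p = 0.108). Without G9577 the change was smaller but the lines agreed more, and it passed (log2 change 0.54, adjusted p = 0.0177; 17.4% of all genes were called in each direction without that line). It also passed in DESeq2 (adjusted p = 0.0456). Ina shares 492 of its 2259 exon bases with Nt5c2, and reads in these bases were not counted.

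**Figure D2:**
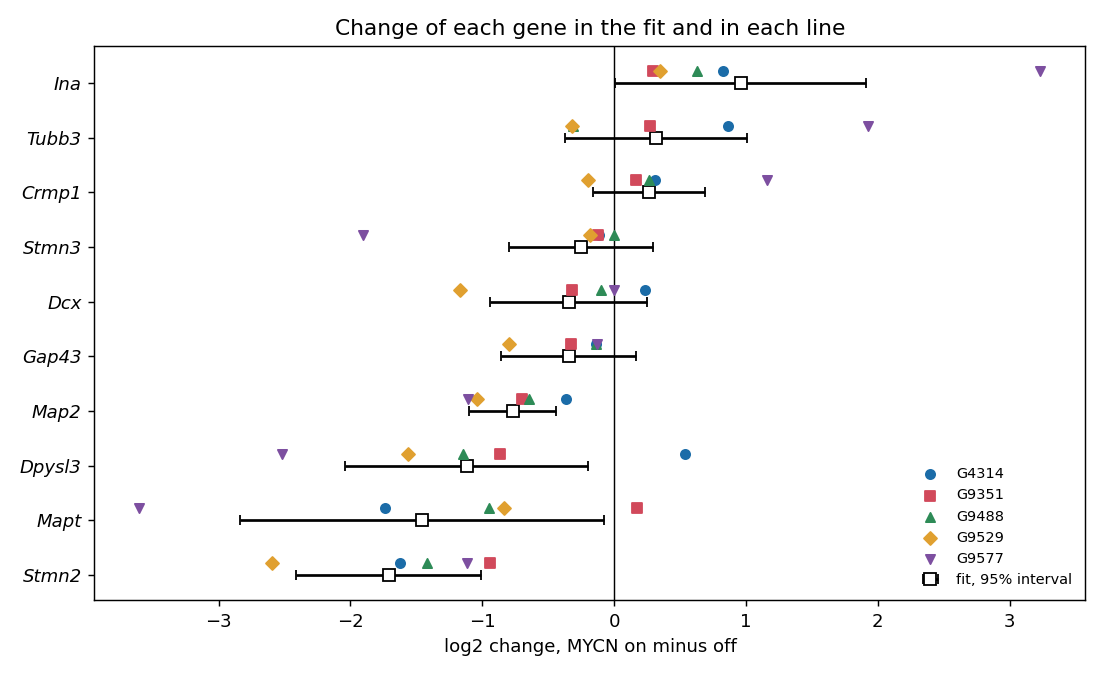
Log2 change of each gene, MYCN on minus off (horizontal axis), with genes sorted by the fitted value. White squares and bars are the fitted change and its 95% interval over 5 lines, and coloured symbols are single lines. The 5 lines of Stmn2, Stmn3, Map2 and Gap43 all lie left of 0, with Stmn3 in G9488 at -0.003, and those of Ina right of 0. G9577 stands apart for Stmn3 and Ina.

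**Figure D3:**
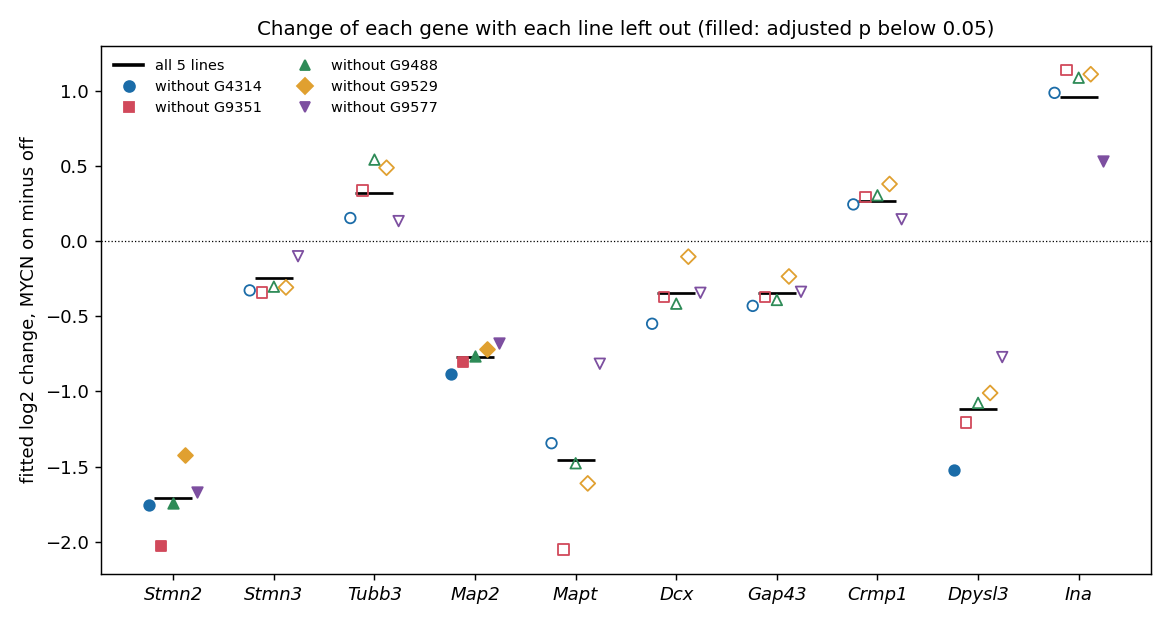
Fitted log2 change of each gene (vertical axis) with all 5 lines (black bars) and with each line left out (symbols, filled where the adjusted p was below 0.05). Stmn2 and Map2 are filled in each case, Ina only without G9577 and Dpysl3 only without G4314.

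Per kilobase of countable exon, which allows levels of different genes to be compared, the 10 genes were ordered as follows in the 8 libraries of the neuroendocrine lines. Crmp1 (148 ± 30.9 CPM per kilobase, SD over 8 libraries), Tubb3 (146 ± 73.0), Stmn3 (120.1 ± 67.9), Ina (99.2 ± 37.8, over the 1767 bases it does not share) and Map2 (83.0 ± 29.8) were the most abundant. Over all its 2259 bases Ina stood at 77.6, below Map2. Stmn2 (31.8 ± 40.7) and Dpysl3 (23.0 ± 21.8) came next, followed by Gap43 (9.10 ± 3.87), Dcx (8.65 ± 7.77) and Mapt (0.859 ± 1.09). Neighbours among the first 5 did not differ beyond their spread: over all 10 libraries Crmp1 exceeded Tubb3 in 5, Tubb3 exceeded Stmn3 in 6, Stmn3 exceeded Ina in 5 and Ina exceeded Map2 in 6. Map2 exceeded Stmn2 in 8 libraries and Stmn2 exceeded Dpysl3 in 4. Dpysl3 exceeded Gap43 in 7, Gap43 exceeded Dcx in 8 and Dcx exceeded Mapt in 8. The summed level of the 10 genes ran from 1204 to 2592 CPM in these 8 libraries, and was 82.5 CPM on and 134 CPM off in G9577. The sum was higher with MYCN off in G9351, G9488, G9529 and G9577 and lower in G4314 (1364 CPM off, 1595 on).

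The lines differed in how many of the 10 genes were lower with MYCN on. The count was 9 in G9529 (median log2 change -0.82), 8 in G9488 (-0.22), 6 in G9351 (-0.22), 6 in G9577 (-0.62, with Dcx at zero counts in both libraries) and 5 in G4314 (0.06). The median over all genes tested was between -0.23, in G9577, and 0, in G9351. In G4314 the 5 genes that were higher were Tubb3, Ina, Dpysl3, Crmp1 and Dcx.

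As a description of shared patterns, the gene whose log2 CPM was most like each member over the 10 libraries was found among all genes tested. For Stmn2 it was Gng4, a G protein gamma subunit (Pearson r = 0.980, and 0.957 over the 8 libraries without G9577). For Tubb3 it was Rimkla, a ligase that makes N-acetylaspartylglutamate (0.996 and 0.992), for Dpysl3 it was Mdga1 (0.964 and 0.949), and for Mapt it was Kif3a, a kinesin subunit (0.950 and 0.942). For Stmn3 it was Npepl1 (0.993 and 0.968), for Map2 Fcho1 (0.995 and 0.919) and for Dcx Cntn1 (0.988 and 0.916). The value was lower without G9577 for each pair. It dropped most for Ina and Kif26a (0.982 and 0.891), Gap43 and Arfgef3 (0.992 and 0.885) and, by the widest margin, Crmp1 and Smim10l2a (0.997 and 0.669). Among the 10 genes themselves the likeness was for some pairs lower without G9577: Crmp1 and Tubb3 had r = 0.982 over 10 libraries and 0.704 over 8, and Map2 and Gap43 had 0.958 and 0.480. Stmn2 and Dpysl3 had 0.825 over 10 libraries and 0.907 over 8, and Mapt and Dpysl3 had 0.720 and 0.750. Libraries of 1 line are not independent, so these values have no test.

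Other genes of the neuronal cytoskeleton were read from lists of related families. Of 101 such genes tested, 8 were higher and 20 lower with MYCN on, with a median log2 change of -0.14. Over all genes 15.3% were higher and 15.6% lower. Without G9351 the counts were 2 and 12, where 6.32% and 7.12% of all genes were called, and without G4314 they were 3 and 11, where 6.64% and 7.14% were. The same shares of all genes stand behind the count of each list. Of 7 other genes of the stathmin, collapsin response mediator and doublecortin families, 1 fell: Dpysl2, which encodes the most widely expressed collapsin response mediator, stood at 159 ± 53.6 CPM on and 310.2 ± 95.6 CPM off (n = 5 lines, SD) and was lower in 5 of 5 lines, G9577 included. Its log2 change was -0.99 (SE 0.17, adjusted p = 0.00823). Dpysl5 (log2 change -0.06, adjusted p = 0.851) and Dclk2 (-0.11, adjusted p = 0.722) were the other 2 of these genes above 100 CPM and did not pass.

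Of 15 other tubulins 3 rose and 2 fell, with a median log2 change of 0.47. Tuba4a was higher in 5 of 5 lines (log2 change 0.76, SE 0.15, adjusted p = 0.0110) and missed the threshold without G9351 (adjusted p = 0.0557). It shares 633 of 2053 exon bases with Stk16. Tuba1b rose 1.89-fold (adjusted p = 0.0258) and missed the threshold without G4314 or G9351 (0.0918 and 0.0911). Tubb2a, a neuronal beta-tubulin, fell by 0.84 on the log2 scale (SE 0.18, adjusted p = 0.0160) and lost its call without G4314 (adjusted p = 0.0504). Tubg2, a gamma-tubulin, fell 1.61-fold (adjusted p = 0.0218) and missed the threshold without G4314, G9351 or G9488 (adjusted p between 0.0632 and 0.0743). Tubb5, the main beta-tubulin of dividing cells, was the most abundant of all at 2487 ± 254 CPM on and 1697 ± 779 CPM off (n = 5 lines, SD) and did not pass (log2 change 0.66, adjusted p = 0.0881). The other tubulins above 100 CPM, Tuba1a, Tubb4b and Tubg1, did not pass either (log2 changes -0.02, 0.56 and 0.54).

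Of 18 other microtubule-associated proteins 1 rose and 3 fell (median -0.16). Mapre3, the end-binding protein EB3 of neurons, averaged 24.7 ± 6.54 CPM on and 72.3 ± 18.1 CPM off (n = 5 lines, SD), with all 5 on libraries below all 5 off libraries (2.88% of all genes). Its log2 change was -1.56 (SE 0.20, adjusted p = 0.00400). It was the only gene of the 28 named from these lists to be called also in the fit without the line block. Map1a fell 1.96-fold (adjusted p = 0.00738) and Map7 1.58-fold (adjusted p = 0.00695), while the plus-end protein Nav1 rose 1.68-fold (adjusted p = 0.0407) and missed the threshold with any 1 line other than G9577 left out (adjusted p between 0.0661 and 0.0824). Map1b, at 653 ± 305 CPM on and 952 ± 269 CPM off (SD, n = 5 lines), did not pass (log2 change -0.61, adjusted p = 0.121). Map4, Map7d1, Mapre1, Mapre2, Camsap1 and Camsap2 were above 100 CPM too and did not pass (log2 changes between -0.32 and 0.34). Map1a shares 272 of 11912 exon bases with Ppip5k1.

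Of 9 other intermediate filament genes 2 rose and 2 fell (median -0.43). The heavy neurofilament gene Nefh was higher with MYCN on in 5 of 5 lines, as Ina was, and rose 2.32-fold (adjusted p = 0.0397, SE 0.36 on a log2 scale). It missed the threshold without G4314, G9351 or G9529 (adjusted p = 0.139, 0.106 and 0.0513). In G9577 Nefh was low, at 6.71 CPM on and 0.557 CPM off. Nefh shares 425 of 3992 exon bases with Ap1b1, and Nefm shares 1077 of 3230 with A230070E04Rik. Nefm (log2 change 1.10, SE 0.45, adjusted p = 0.0984) and Nefl (0.81, SE 0.49, adjusted p = 0.242) did not pass, though Nefm did without G9577 (log2 change 1.17, adjusted p = 0.0400). With DESeq2 Stmn1, Tubb5, Map1b and Nefm passed (adjusted p between 0.0394 and 0.0474). Nes (nestin, an intermediate filament of progenitors) rose 2.75-fold (adjusted p = 0.0202), with its highest levels in G9577, and missed the threshold when any 1 of the other lines than G9529 was left out (adjusted p between 0.0506 and 0.0783). Krt8, an epithelial keratin, fell 2.18-fold (adjusted p = 0.0139) and lost its call without G4314 (adjusted p = 0.0536) or G9351 (0.0534). Sync, at 1.04 ± 1.10 CPM on and 3.52 ± 1.74 CPM off (n = 5 lines, SD), fell 3.71-fold (adjusted p = 0.0395), missed the threshold without G4314, G9351 or G9529 (adjusted p between 0.0982 and 0.128), and was not tested without G9577; it shares 518 of 2038 exon bases with Rbbp4. Lmna, at 271 ± 461 CPM on and 284 ± 414 CPM off (n = 5 lines, SD), did not pass (log2 change -0.43, adjusted p = 0.116). Vim (vimentin) did not pass the filter, since it was at 1638 and 4409 CPM in G9577 and below 0.5 CPM in the other 8 libraries.

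Of 15 growth cone and actin genes 1 rose and 2 fell (median 0.01). Fscn1, the actin-bundling protein fascin, rose 1.97-fold (adjusted p = 0.00725, SE 0.16 on a log2 scale), and Ablim1 and Cttnbp2 fell 2.47-fold and 3.12-fold (adjusted p = 0.00346 and 0.00591). Basp1 and Marcks, membrane proteins related in function to Gap43, had log2 changes of 0.24 (adjusted p = 0.579) and -0.28 (adjusted p = 0.547). Marcksl1, Dbn1, Dbnl, Abi2, Enah, Palm and Cdc42, also above 100 CPM, had log2 changes between -0.30 and 0.41 and did not pass over 5 lines. Without G9577 Enah (log2 change 0.54, adjusted p = 0.0442) and Palm (0.46, adjusted p = 0.0125) passed. Of 17 motors and adaptors 1 rose, Kif21a (2.04-fold, adjusted p = 0.00784), and 5 fell (median -0.43), among them the neuronal kinesin heavy chain Kif5a (2.58-fold, adjusted p = 0.00891), the kinesin adaptor Mapk8ip1 (1.88-fold, adjusted p = 0.00506) and the dynein chain Dync1i1 (4.62-fold, adjusted p = 0.00853). Dync1i1 was low, at 0.993 ± 1.01 CPM on and 4.49 ± 4.43 CPM off (n = 5 lines, SD), and did not pass the count filter without G4314 or G9351. Klc1, a kinesin light chain, fell by 0.75 on the log2 scale (adjusted p = 0.0109, and 0.0521 without G9351), and Kif3a by 0.48 (adjusted p = 0.0252, and between 0.0576 and 0.0742 without G4314, G9351 or G9488). Kif1a, Kif1b, Kif5b, Kif5c, Dync1i2 and Mapk8ip3, above 100 CPM, had log2 changes between -0.59 and 0.18 and did not pass over 5 lines. Kif1a passed without G9577 (log2 change -0.42, adjusted p = 0.0217). Of 20 kinases, tubulin modifiers and severing enzymes 0 rose and 5 fell (median -0.21), among them the tubulin glutamylase Ttll7 (log2 change -0.85, adjusted p = 0.00506) and the tau-tubulin kinase Ttbk2 (1.61-fold, adjusted p = 0.00998). Cdk5, a kinase of tau and of doublecortin (1.49-fold, adjusted p = 0.0250), and Ttll1 (1.36-fold, adjusted p = 0.0235) fell too; both missed the threshold without G4314, G9351 or G9488, and Ttll1 also without G9529 (adjusted p between 0.0572 and 0.0955). Gsk3a, Gsk3b, Mark1, Mark2, Mark3, Agtpbp1 and Spast, above 100 CPM, had log2 changes between -0.27 and 0.22 and did not pass.

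**Figure D4:**
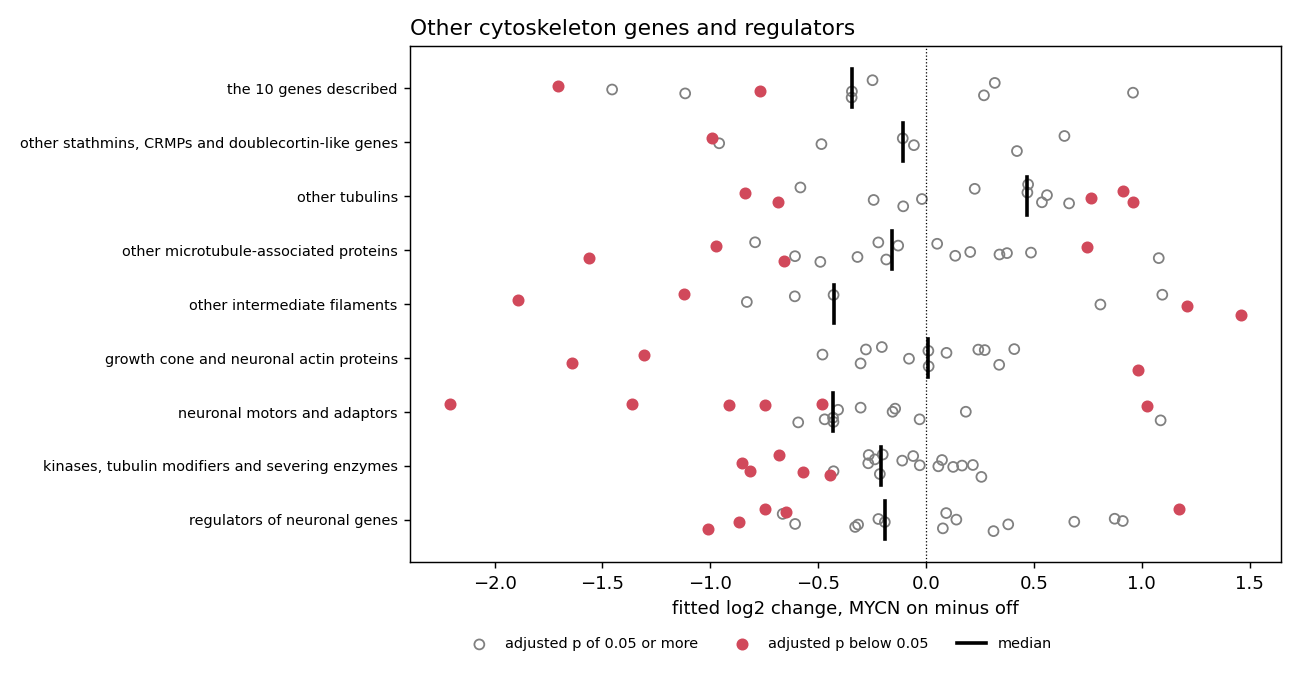
Fitted log2 change, MYCN on minus off (horizontal axis), of each gene tested in the 10 genes described and in 8 lists of related genes (rows). Red points had an adjusted p below 0.05, open points did not, and black bars are medians; the medians lie between -0.43 for motors and intermediate filaments and 0.47 for tubulins.

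Among 19 regulators of neuronal genes tested, 1 rose and 4 fell (median -0.19). Celf3, a neuronal RNA-binding protein, fell 2.02-fold (adjusted p = 0.00628), its relative Celf4 fell 1.83-fold (adjusted p = 0.0162, and between 0.0609 and 0.0637 without G4314, G9351 or G9488), and Rcor2, a corepressor that partners with REST, rose 2.26-fold (adjusted p = 0.0122). Myt1, a zinc finger factor of neuronal differentiation, fell by 0.65 on the log2 scale at an adjusted p of 0.04996 and missed the threshold with any 1 line other than G9577 left out (adjusted p between 0.0756 and 0.124). Insm1, Elavl2, Elavl3, Elavl4 and Rbfox2, above 100 CPM, had log2 changes between -0.66 and 0.87 and did not pass. Rest, the repressor of neuronal genes, did not pass the filter: it stood at 40.3 and 62.1 CPM in G9577 and below 1 CPM in the other 8 libraries. The summed level of the 10 genes was lowest in G9577, which also differed from the other lines in its cell type markers. A part of Rest in that level was not tested.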

How the data were processed

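RNA from 5 mouse SCLC lines on and off doxycycline was sequenced (10 libraries). The submitters' processing notes name bcl2fastq 1.8.4, STAR 2.5.2a and the mm9 build. The deposited values are raw counts per gene from featureCounts 1.6.0 with UCSC iGenomes mm9 models, without strand and without reads that fit several places or genes, per the file headers. Coordinates of genes are those of the files, counted from 1.

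Genes were filtered with filterByExpr (minimum count 10), counts were scaled with TMM factors, and edgeR 4.0.16 (R 4.3.3) tested doxycycline by its quasi-likelihood F test with the line as a block, two-sided, with Benjamini-Hochberg adjustment over 12835 genes and a threshold of 0.05. There were 4 residual degrees of freedom and a biological coefficient of variation of 28.5%. For a single line the change is log2 CPM on minus off, computed with a prior count of 2. Standard errors were derived from the F statistic and the fitted change. The test was checked on simulated counts in which a changed gene had the same change in each line. That check does not cover changes that differ between lines. Lines pair the libraries by label: deviations from group means correlated with r of 0.721 to 0.873 within a line and at most 0.273 between lines.

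The members and lists were chosen with earlier results of these data known. From each list, the text names up to 4 called genes with the smallest p, genes with a mean of at least 100 CPM (those without a call by their range), and others after their values were seen. A gene that this rule names is not reported here. Alternatives were a fit without the block, DESeq2 1.42.0, limma-voom (limma 3.58.1), RLE scaling, library size alone, other filters and each line left out.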

Additional observations from a re-analysis of the deposited data

Results flagged for a closer look

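Over the 10 genes, 30 sets of 5 values (log2 CPM with MYCN on, log2 CPM with MYCN off, and the log2 change, each over the 5 lines) were examined for a line far from the others by Dixon's ratio (critical value 0.71), and 12 held one. For a single set chance gives about 1 in 20. The 30 sets are not independent, since they reuse the same 5 lines and each change is computed from the levels, so their count cannot be set against that rate. In 10 of the 12 sets the line was G9577. Its log2 CPM stood below the other 4 lines for Tubb3 (1.71 on, -0.22 off), Map2 (4.15 on, 5.26 off), Crmp1 (1.97 on, 0.81 off), Gap43 (-1.27 off) and Ina (2.22 off), and its log2 change apart from theirs for Stmn3 (-1.91) and Ina (3.23). The change of Stmn3 in G9577 rests on 2 and 11 counts. Mapt in G9351 stood above the other lines with MYCN on (log2 CPM 3.91), and the change of Gap43 in G9529 (-0.80) lay below those of the other lines.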

How the results depend on the processing

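Of 120 values of the 10 genes under 12 alternatives, 0 reversed their direction, 112 stayed on the same side of the threshold, 2 lost a call and 6 gained one. Without the line block 0 members were lower and 0 higher (0 and 0 at an unadjusted p below 0.05), where 0.460% and 1.68% of all genes were called, and of the 101 related genes 0 were higher and 1 lower. This fit puts the differences between lines into the error. With DESeq2 1 member was higher and 4 lower. Leaving out each line in turn gave 0 to 1 members higher, the 1 being Ina without G9577, and 2 to 3 lower, the third being Dpysl3 without G4314. Across these 5 fits 6.32% to 17.4% of all genes were higher and 7.12% to 17.4% lower. The related genes then numbered 2 to 12 higher, the lowest without G9351, followed by 3 without G4314, and 11 to 24 lower, the lowest without G4314, followed by 12 without G9351. These counts rest on 8 libraries in place of 10. Of the 28 genes named with the smallest p in their lists, 14 kept their call with each line left out. The 3 differences between paired members kept their sign with each line left out. Among the genes above 100 CPM that did not pass, 4 given with their own values had the other sign under some alternatives: Dpysl5 (0.050 without the block, 0.058 with limma-voom, and -0.24 to 0.13 with each line left out), Dclk2 (-0.34 to 0.049), Tuba1a (-0.14 to 0.13) and Marcks (-0.55 to 0.100). Of the 31 given as a range, 5 did so (Cdc42, Dbn1, Gsk3a, Insm1 and Spast). Under at least 1 alternative 7 of the 31 passed (Dbnl, Enah, Palm, Kif1a, Mapk8ip3, Elavl2 and Elavl4). Precision is limited by depth for Mapt, Gap43 and, in G9577, for Stmn2, Stmn3, Tubb3 and Dcx, with counts of 11 or fewer in at least 1 library.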
